A study of Mus musculus with 12 samples.

Results

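The Trim family of the mouse was described across 4 groups of bone marrow-derived macrophages, as the genes whose symbol is Trim followed by a number and at most 1 letter. The rule found 68 genes among the 55573 of the count table, and 40 of them passed the filter on low counts, which left 14197 genes in all. The 4 groups were BMI1-KO MM-MΦs, BMI1-KO MΦs, wt MM-MΦs and wt MΦs, with 3 libraries each. MM-MΦs are macrophages that had been kept with 5TGM1 myeloma cells for 48 h, and MΦs are macrophages kept without them. All donors were C57BL/6 mice with floxed BMI1 alleles (BMI1fl/fl), 6 to 8 weeks old when treated, and the BMI1-KO mice also carried Mx1-Cre. Both genotypes received 5 doses of 15 mg/kg poly I:C, an RNA mimic that induces interferon and thereby the Mx1 promoter that drives Cre in many tissues. Marrow was taken 4 weeks later, grown in 5 ng/mL M-CSF for 7 days, and the cells were sorted as CD11b+ F4/80+. The labels do not say if the 3 libraries of a group are from different mice, so p-values measure the spread between these libraries.

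Most TRIM proteins carry a RING finger, which makes many of them E3 ubiquitin ligases, followed by 1 or more B-boxes and a coiled coil. Their C-terminal ends differ and set what each protein binds, from viral capsids to chromatin. Many members with a PRY-SPRY end are induced by interferon in macrophages and act in antiviral defence, whereas the members with a PHD finger and bromodomain are nuclear co-regulators of transcription.

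The libraries held 9662279 to 11142768 counts, and Trim genes took 0.148% to 0.186% of them. All 9 macrophage markers had counts in every library, with a summed level of 13078.8 to 20113.9 CPM, that is, counts scaled to library size with TMM factors. Bmi1 was listed at 0 in the 6 BMI1-KO libraries and had up to 364 counts in each of the 6 wt libraries. The library totals behind the authors' FPKM values exceeded the summed counts by 512 to 734 counts in the BMI1-KO libraries and matched them within 1 count in the wt libraries, so the Bmi1 row was not used to check the labels. The 15 plasma cell and B cell markers summed to 266.9 to 445.7 CPM in BMI1-KO MM-MΦs and 142.4 to 197.2 CPM in BMI1-KO MΦs. In wt the sums were 330.02 to 550.7 CPM in MM-MΦs and 181.3 to 285.5 CPM in MΦs. Among these markers Ms4a1 and Mzb1 were each counted in 1 library only, and Igkc had 357 to 1327 counts in MM-MΦ libraries and 8 to 157 in MΦ libraries. Of the 7 markers that passed the filter, Igkc, Ighg2b and Pou2af1 were called higher in MM-MΦs by edgeR without the block, and Irf4 also with it. The sums also hold Xbp1, at 104 to 184 CPM over the 12 libraries, Sdc1 and Cd79b, which were not called by either fit, so the sums are not a measure of plasma cell RNA alone. In bulk RNA, fewer cells of a type and less RNA per cell cannot be told apart, and the part of the plasma cell transcripts in the co-culture results was not tested.

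The family covered a wide range of levels. Trim28, the co-repressor that KRAB zinc finger proteins bring to DNA, had the highest mean level at 41.0 FPKM (fragments scaled to exon length and library total; SD 7.51 over 12 libraries). Trim25, which ubiquitinates the RNA sensor RIG-I, followed at 38.9 FPKM (SD 4.42). Both stood above 98.1% of all genes in the table. Trim30a, a mouse member known to restrain Toll-like receptor signalling through TAB2 and TAB3, was the third at 30.4 FPKM, and its SD of 11.7 was the largest of the family.

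Trim35 (28.2 FPKM), Trim8 (26.2), Trim44 (20.6), Trim41 (15.8), Trim30d (11.8), Trim34a (10.9) and Trim26 (10.7) completed the 10 highest, on the same per-length scale. Close pairs were Trim28 and Trim25, Trim30a and Trim35, Trim35 and Trim8, Trim30d and Trim34a, and Trim34a and Trim26. In each the means differed by less than the SD of the first over the 12 libraries, an SD that includes differences between the groups. Their order within libraries was not tested. By group, Trim30a had 45.2 (BMI1-KO) and 34.2 (wt) FPKM in MM-MΦs, above Trim35 at 30.4 and 24.7. In MΦs Trim30a had 23.7 and 18.6 FPKM, below Trim35 at 31.3 and 26.2. The mean of Trim30d was likewise above that of Trim34a in both MM-MΦ groups and below it in both MΦ groups. At the other end, 15 members were listed at 0 in all 12 libraries, among them the muscle genes Trim54, Trim63 and the stem cell gene Trim71. A count of 0 allows up to 0.269 to 0.310 CPM in these libraries, taking 3 counts as the limit, and covers counting error only. The other 13 members left out of the tests had 1 to 83 counts over all libraries, and 3 symbols that resemble the family (Triml1, Triml2 and Trim30e-ps1) fall outside the rule and had no counts.

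**Figure D1:**
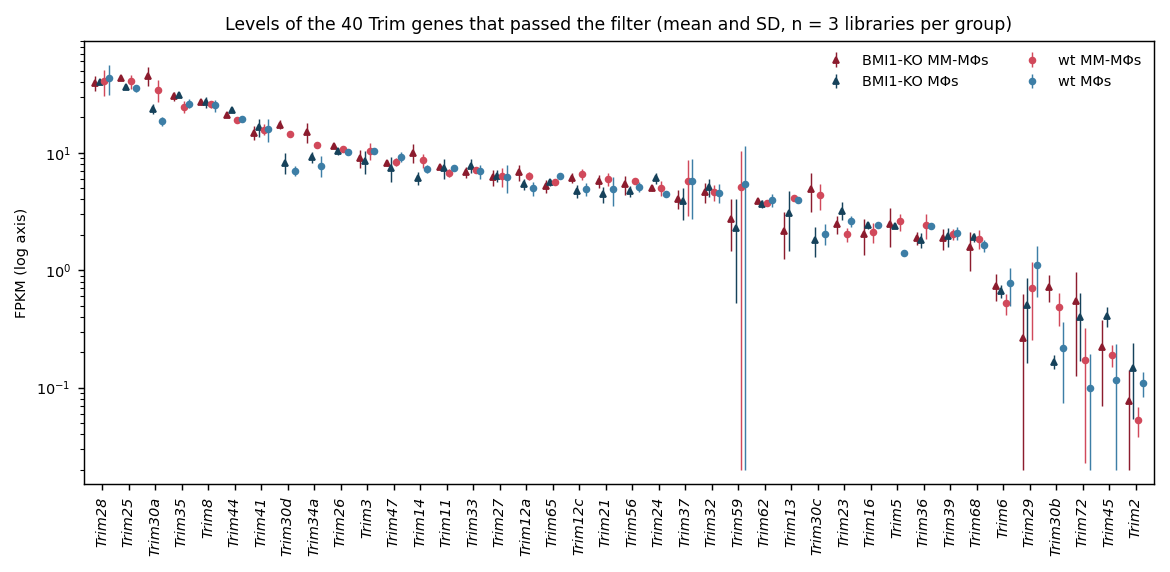
FPKM on a log axis of the 40 Trim genes that passed the filter, ordered by mean level, with the mean and SD of the 3 libraries of each group (bars that would reach 0 are drawn to 0.02). Trim28 and Trim25 lead with means of 41.0 and 38.9 FPKM, and Trim30a, Trim30d, Trim34a and Trim30c stand higher in both MM-MΦ groups.

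Trim genes of a single stretch of chromosome 7 led the answer to co-culture. MM-MΦs were set against MΦs, averaged over genotypes, with edgeR's quasi-likelihood test on the deposited counts and Benjamini-Hochberg adjustment over all 14197 genes. Of the 40 members 4 rose and 0 fell, a share of 10% beside a background of 0.549% of all genes called higher and 0% called lower. The 4 were Trim30a, Trim30d, Trim34a and Trim30c, and all are within 289 kb of chromosome 7 (GRCm38, 104218793 to 104507849). That stretch holds 10 protein-coding genes in the annotation used here (GENCODE M21), and all 10 are Trim genes, from Trim6 to Trim30d. Trim34a lies there at 104244457 to 104262234 on the plus strand and Trim30c at 104382065 to 104400837 on the minus strand.

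Replicate numbers were taken to pair the libraries within a genotype, which the labels do not state. On that reading each MM-MΦ library was also set against the MΦ library of its own number and genotype. With this replicate block 9 members rose and 0 fell, where 2.85% of all genes were called higher and 0.465% lower. The 5 added members were Trim14, Trim30b, Trim12a, Trim12c and Trim25, of which 3 lie in the same stretch. Trim14 is on chromosome 4 (46493781 to 46536141, minus strand) and Trim25 on chromosome 11 (88999376 to 89020293, plus strand). Without the block 11 members had an unadjusted p under 0.05 for a higher level (2.59% of all genes) and 1, Trim23, for a lower level (1.09%).

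Over all 40 members the median log2 fold change was 0.02, beside -0.0037 over all genes tested, and 22 members lay above 0 and 18 below it.

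Trim30a and Trim30d lie next to each other on the minus strand, at 104409025 to 104465193 and 104470014 to 104507849. Their promoters are shown because they share a run of 118 identical bases within the 300 bases around the RefSeq start site. That run holds the letters GAAANNGAAA on the strand opposite to the gene, where they read TTTCNNTTTC. These letters are the core of the interferon-stimulated response element, a promoter element of many interferon-induced genes. Trim12c and Trim5, from the same stretch, are set beside them, and Trim28 and Trim44, members whose level was held, below them. The genes shown were chosen by hand and do not stand for the family. Trim26, held within 1.5-fold, also has these letters, and Trim30b, Trim30c and Trim25 rose without them, and none of these is shown. Each line gives the 80 bases before the start site, 5′ to 3′ on the gene's strand, from RefSeq's GRCm38.p6, and capitals mark the motif.
Trim30a (chr7:104465194-104465273, minus strand): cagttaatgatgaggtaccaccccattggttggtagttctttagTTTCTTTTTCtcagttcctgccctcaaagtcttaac
Trim30d (chr7:104507850-104507929, minus strand): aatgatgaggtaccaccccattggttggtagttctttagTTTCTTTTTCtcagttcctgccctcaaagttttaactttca
Trim12c (chr7:104353350-104353429, minus strand): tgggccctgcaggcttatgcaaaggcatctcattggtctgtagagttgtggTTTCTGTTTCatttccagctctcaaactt
Trim5 (chr7:104288107-104288186, minus strand): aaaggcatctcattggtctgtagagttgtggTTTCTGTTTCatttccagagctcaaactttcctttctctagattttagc
Trim28 (chr7:13024072-13024151, plus strand): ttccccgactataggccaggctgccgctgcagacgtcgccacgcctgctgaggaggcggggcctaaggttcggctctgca
Trim44 (chr2:102400901-102400980, minus strand): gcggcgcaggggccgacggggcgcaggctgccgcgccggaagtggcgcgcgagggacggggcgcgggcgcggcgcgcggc

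In Trim34a, Trim12a and Trim21 the same letters stand just after the RefSeq start site, and 30 bases around each site are shown for comparison. Trim21 carries the letters on its own strand, in 2 overlapping copies.
Trim34a (chr7:104244457-104244486, plus strand): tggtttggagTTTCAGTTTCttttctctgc
Trim12a (chr7:104315466-104315495, minus strand): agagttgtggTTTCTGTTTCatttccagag
Trim21 (chr7:102565450-102565479, minus strand): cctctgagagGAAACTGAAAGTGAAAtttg

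The motif was searched on both strands of 32851 promoters and was present in 3.44% of them, and in 10 of the 67 Trim promoters. Some genes have several promoters, so these shares do not compare directly with counts of genes. Of the 30 tested members with an entry 9 held it in any of their promoters, namely Trim2, Trim5, Trim12a, Trim12c, Trim21, Trim26, Trim30a, Trim30d and Trim34a. Among the 8 members with an entry that rose with the replicate block 5 held it, against 4 of the other 22. These counts were not compared by a test. All 5 lie in the stretch of chromosome 7 and are not independent, as promoters there share identical runs. The run of 118 bases in Trim30a and Trim30d holds the motif, and the run of 71 in Trim12a and Trim12c does not. Trim12a and Trim12c were called only with the block. Trim30b, Trim30c and Trim25 rose with no match in their 300 bases, and Trim14 has no entry. The promoters of Trim12a and Trim5 share an identical run of 241 bases that holds the motif. A match describes letters and does not show a bound site.

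Trim30a was the most abundant of the 4. Its level was 178, 222 and 161 CPM in BMI1-KO MM-MΦs, against 105, 103 and 83.1 CPM in BMI1-KO MΦs. In wt it was 144, 118 and 162 CPM in MM-MΦs, against 74.4, 75.8 and 77.5 CPM in MΦs. All 6 MM-MΦ libraries were above all 6 MΦ libraries. The log2 fold change averaged over genotypes was 0.92 (SE 0.11, edgeR adjusted p = 0.00256).

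Trim30d, a close relative of Trim30a, had 64.6, 71.6 and 61.4 CPM in BMI1-KO MM-MΦs, against 32.6, 36.8 and 23.3 CPM in BMI1-KO MΦs. In wt, MM-MΦs had 59.3, 55.7 and 50.5 CPM, against 25.4, 29.6 and 23.8 CPM in MΦs. The MM-MΦ and MΦ libraries did not overlap in either genotype or across them. The log2 fold change was 1.08 (SE 0.12, edgeR adjusted p = 0.0015), or 2.11-fold.

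These 2 genes share sequence, since 5.98% of the 50-base words of Trim30a transcripts also occur in Trim30d and 6.39% of those of Trim30d in Trim30a. The sources used here do not say how reads that fit both were counted. Each remained called when any 1 of the 12 libraries was left out.

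Trim34a, a relative of the primate restriction factor TRIM34, had 35.6, 47.5 and 34.4 CPM in BMI1-KO MM-MΦs, against 21.4, 24.4 and 25.0 CPM in BMI1-KO MΦs. Among wt libraries, MM-MΦs had 32.7, 30.5 and 28.4 CPM, against 16.4, 22.5 and 20.9 CPM in MΦs. Again no MM-MΦ library was as low as any MΦ library. The log2 fold change was 0.67 (SE 0.12, edgeR adjusted p = 0.035). The call held in 1 of 12 fits that each left out 1 library, the fit without BMI1-KO MM-MΦ replicate 3, and the adjusted p ranged from 0.0386 to 0.111. Trim34a shares 39.8% of its 50-base words with Trim34b, which had 25 counts in all, and 23.5% of its exon bases overlap an antisense gene, so without a stated strand setting its counts are uncertain.

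Trim30c was low, with 9.35, 11.2 and 5.10 CPM in BMI1-KO MM-MΦs, against 4.17, 2.57 and 2.54 CPM in BMI1-KO MΦs. The wt MM-MΦs had 10.1, 5.90 and 6.75 CPM, against 3.05, 3.37 and 3.93 CPM in MΦs. The groups did not overlap, and the log2 fold change was 1.30 (SE 0.24, edgeR adjusted p = 0.0424). Leaving out 1 library kept the call in 2 of 12 fits, those without BMI1-KO MΦ replicate 1 or BMI1-KO MM-MΦ replicate 3, with an adjusted p of 0.0173 to 0.144. These 4 members were the only tested ones whose MM-MΦ and MΦ libraries did not overlap over both genotypes, where 0.775% of all genes were higher without overlap. Non-overlap of 3 against 3 libraries within a genotype is a description, with no share of all genes beside it.

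**Figure D2:**
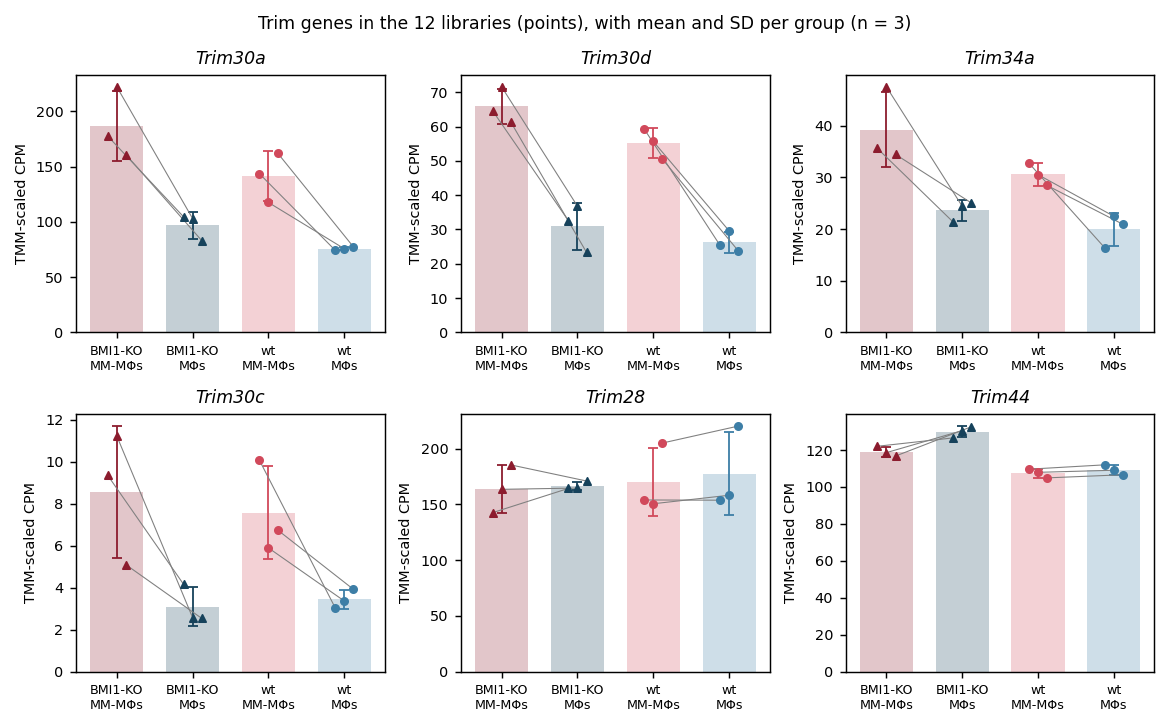
TMM-scaled CPM of 4 members that rose (Trim30a, Trim30d, Trim34a, Trim30c) and of 2 that were held (Trim28, Trim44), with points for the libraries, bars and error bars for the mean and SD of 3, and grey lines joining libraries of the same number and genotype. Every line falls to the right for the first 4 genes, as in Trim30a with 161 to 222 CPM in BMI1-KO MM-MΦs and 83.1 to 105 CPM in BMI1-KO MΦs, whereas the lines of Trim28 and Trim44 are nearly level.

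Trim30b, the lowest of the Trim30 genes, had the largest fold change of the family. It had 5.63, 6.82 and 4.03 CPM in BMI1-KO MM-MΦs, against 1.35, 1.33 and 0.998 CPM in BMI1-KO MΦs. In wt, MM-MΦs had 4.49, 2.38 and 4.12 CPM, against 0.508, 2.55 and 1.71 CPM in MΦs. The groups were apart in BMI1-KO and overlapped in wt, where replicate 2 was slightly lower in MM-MΦs. The log2 fold change was 1.68 (SE 0.34), with an adjusted p of 0.0684 in edgeR without the block and 0.00273 with it.

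Trim14, an adaptor of mitochondrial antiviral signalling described in human cells, had 36.9, 50.7 and 43.7 CPM in BMI1-KO MM-MΦs, against 30.1, 26.5 and 22.4 CPM in BMI1-KO MΦs. Among wt libraries, MM-MΦs had 38.8, 44.4 and 31.3 CPM, against 35.8, 32.0 and 26.6 CPM in MΦs, so that the wt groups overlapped. With the block it was 0.50 higher on the log2 scale (SE 0.097, edgeR adjusted p = 0.00266), against an adjusted p of 0.277 without it. Of its exon bases 31.3% lie opposite exons of Nans, so reads of the 2 genes cannot be told apart without strand.

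Trim25, which activates RIG-I by ubiquitin chains, moved by less but at high depth. It had 252, 259.9 and 244 CPM in BMI1-KO MM-MΦs and 218, 205 and 199.6 CPM in BMI1-KO MΦs. In wt the MM-MΦs had 219, 274 and 217 CPM and the MΦs 225, 211 and 172 CPM. The groups were apart in BMI1-KO only, and with the block it was 0.25 higher on the log2 scale (SE 0.062, edgeR adjusted p = 0.0241). The call was lost when wt pair 2 or 3 or BMI1-KO pair 2 or 3 was left out, with adjusted p of 0.113, 0.174, 0.0913 and 0.0509.

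Trim12a and Trim12c are mouse relatives of the primate capsid restriction factor TRIM5. Trim12a had 43.6, 43.5 and 32.6 CPM in BMI1-KO MM-MΦs, against 35.3, 30.3 and 27.2 CPM in BMI1-KO MΦs, and 36.9, 37.5 and 37.5 CPM in wt MM-MΦs, against 27.7, 33.8 and 24.6 CPM in wt MΦs. Its groups overlapped in BMI1-KO and did not in wt. Trim12c had 25.1, 24.0 and 20.3 CPM in BMI1-KO MM-MΦs, against 15.8, 20.3 and 16.2 CPM in BMI1-KO MΦs. The wt MM-MΦs had 26.2, 22.8 and 25.6 CPM, against 16.5, 20.3 and 17.7 CPM in MΦs. The groups of Trim12c did not overlap within either genotype, the nearest BMI1-KO libraries both being at 20.3 CPM after rounding. Log2 fold changes with the block were 0.43 (SE 0.11, edgeR adjusted p = 0.0257) for Trim12c and 0.38 (SE 0.088, edgeR adjusted p = 0.0161) for Trim12a, and neither was called without it. Without wt pair 1 or 3 neither was called (adjusted p = 0.0661 and 0.132 for Trim12a, 0.153 and 0.116 for Trim12c), and the call was also lost without BMI1-KO pair 2 for Trim12a (0.0834) and without BMI1-KO pair 1 for Trim12c (0.134). The 2 share sequence with Trim5, with 24.2% of the words of Trim12c and 5.04% of those of Trim12a found there.

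Along chromosome 7, 16 Trim genes are annotated, and 14 were tested. Outside the stretch from Trim6 to Trim30d, Trim28, Trim68, Trim3 and Trim72 were not called by either fit. Trim21, a cytosolic antibody receptor gene at 102557921 to 102565486 on the same chromosome, had an averaged log2 fold change of 0.36 (SE 0.13) that was not called by edgeR with or without the block (adjusted p = 0.0942 with it). Within the stretch, Trim6 was the only tested member below 0, at -0.16 (SE 0.23).

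**Figure D3:**
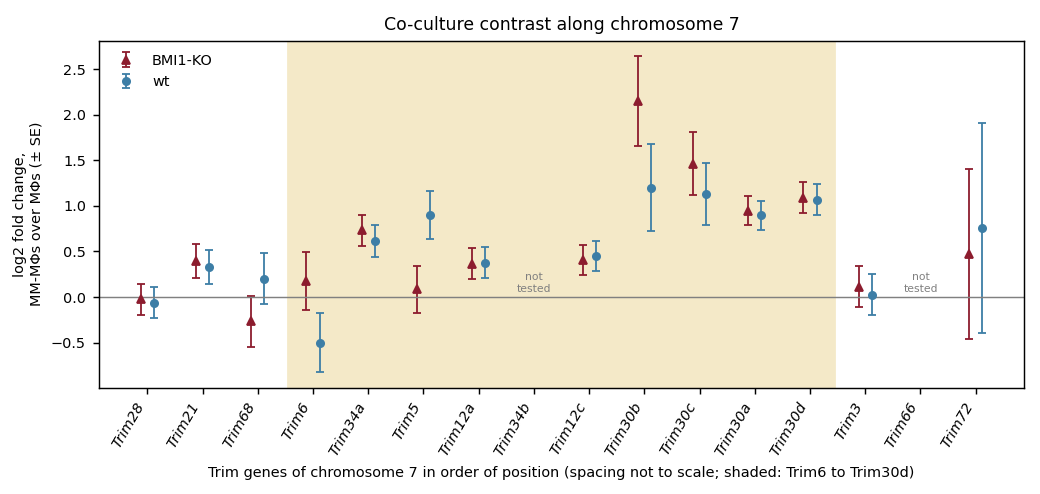
Log2 fold change of MM-MΦs over MΦs with its SE (group-mean fit) for the 16 Trim genes of chromosome 7 in order of position, with triangles for BMI1-KO and circles for wt. In the shaded stretch Trim30a to Trim30d and Trim34a stand well above 0 in both genotypes, with Trim30a at 0.95 in BMI1-KO and 0.90 in wt, and Trim6 is at 0.17 in BMI1-KO and -0.50 in wt.

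Trim5, another relative of the primate restriction factor TRIM5 in the same stretch, had 13.6, 6.82 and 7.51 CPM in BMI1-KO MM-MΦs, against 9.37, 8.58 and 8.35 CPM in BMI1-KO MΦs. In wt, MM-MΦs had 9.38, 8.90 and 10.7 CPM, against 5.79, 5.11 and 4.61 CPM in MΦs. The wt groups did not overlap and the BMI1-KO groups did. The log2 fold change was 0.09 (SE 0.26) in BMI1-KO and 0.90 (SE 0.26) in wt, and the test of the difference gave -0.82 (SE 0.37, edgeR adjusted p = 1), so a difference between genotypes was not called. Of its 50-base words 36.3% occur in other genes.

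In BMI1-KO alone, MM-MΦs against MΦs called 2 members higher, Trim30d by 1.09 on the log2 scale (SE 0.17, edgeR adjusted p = 0.0353) and Trim30a at 0.95 (SE 0.16, adjusted p = 0.0465), where 0.19% of all genes were called higher. At an unadjusted p under 0.05 there were 7 members, all higher, beside 1.94% of all genes. Trim30a lost this call in each of the 12 fits that left out 1 library, with an adjusted p of 0.0506 to 0.243. Trim30d kept it in 2 of 12, those without wt MΦ replicate 2 or 3. The block called 6 members higher (background 1.85%), adding Trim14, Trim34a, Trim30c and Trim30b. Without BMI1-KO pair 2 all 4 of these lost the call (edgeR adjusted p = 0.0802, 0.127, 0.175 and 0.122). Trim14 also lost it without pair 3 (0.0801) and Trim30b without pair 1 or pair 3 (0.0721 and 0.0883).

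In wt alone, edgeR called 0 members, where 0.0916% of all genes were called higher, and 8 members had an unadjusted p under 0.05, all higher (1.52% of all genes). Trim30d came nearest at 1.07 (SE 0.17, adjusted p = 0.0516, and 0.0147 without BMI1-KO MΦ replicate 3), and Trim30a followed at 0.90 (SE 0.16, adjusted p = 0.0791). DESeq2 called these 2 and limma-voom 0. The block called 3 (background 1.06%), namely Trim30a, Trim30d and Trim34a. Trim34a was no longer called with any 1 of the wt pairs left out, at adjusted p = 0.682 without pair 1, 0.0547 without pair 2 and 0.102 without pair 3.

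The test of whether co-culture acted differently in BMI1-KO and wt called 0 members by edgeR, DESeq2 and limma-voom, where 0% of all genes were called by edgeR. With the replicate block it called 0 members and 0.00704% of all genes. An unadjusted p under 0.05 was reached by 2 members, Trim24 and Trim5 (0.909% of all genes). For Trim30a the difference of the log2 fold changes, BMI1-KO minus wt, was 0.05 with a 95% interval of -0.43 to 0.53, for Trim30d it was 0.02 with -0.50 to 0.55, and for Trim14 it was 0.45 with -0.13 to 1.03. With the replicate block the intervals were narrower, at -0.23 to 0.34 for Trim30a, -0.31 to 0.39 for Trim30d and 0.06 to 0.86 for Trim14, whose difference was not called (edgeR adjusted p = 0.999).

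**Figure D4:**
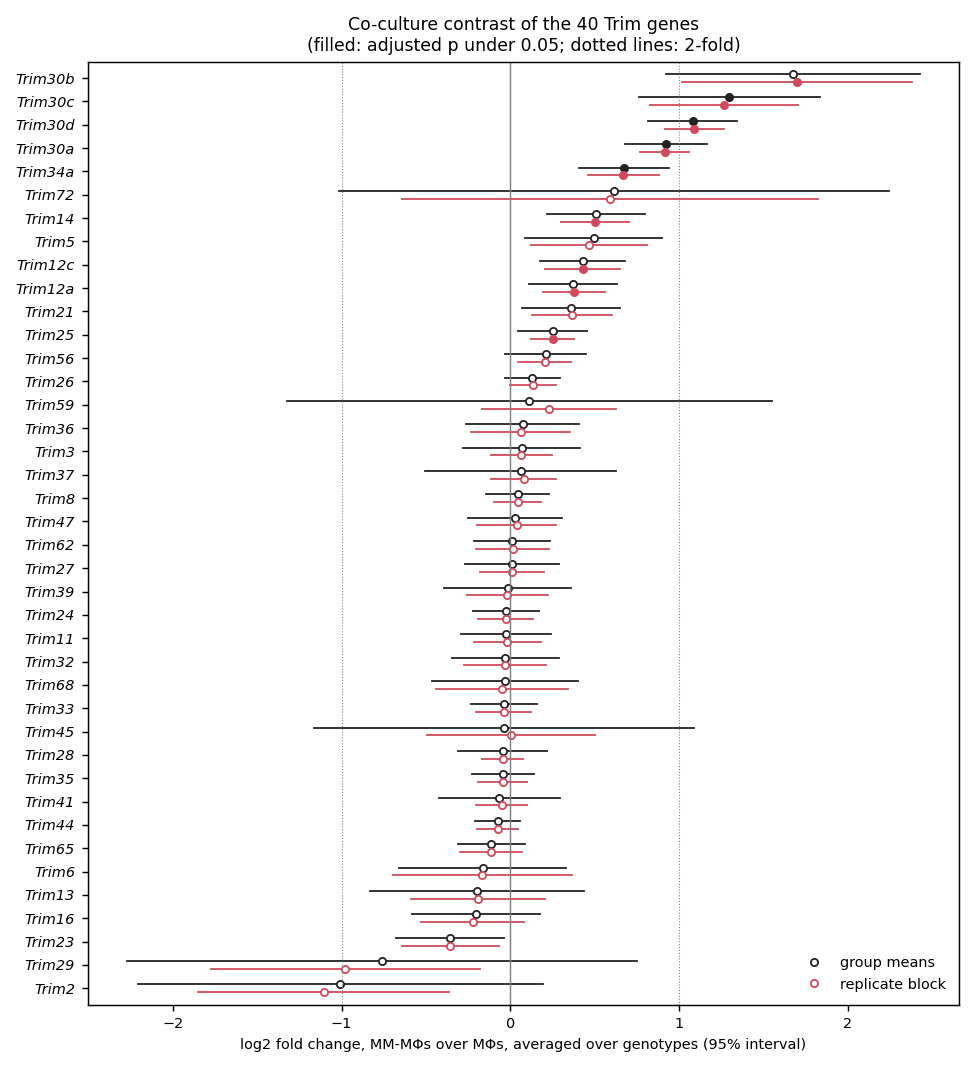
Log2 fold change of MM-MΦs over MΦs averaged over genotypes with 95% intervals for the 40 tested members, ordered by value, from the group-mean fit (black) and the replicate block (red), with filled points for adjusted p under 0.05 and dotted lines at 2-fold. The 9 filled red points are all above 0, from 0.25 for Trim25 to 1.70 for Trim30b, and most other members crowd around 0.

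In pairs of libraries of the same number and genotype, 10 members (25%) were higher in the MM-MΦ library in 6 of 6 pairs, where 4.9% of all genes were. They were Trim12a, Trim12c, Trim14, Trim21, Trim26, Trim30a, Trim30c, Trim30d, Trim34a and Trim56. Trim56, which promotes cytosolic DNA sensing, and Trim26, which acts on IRF3, showed small steps, with log2 fold changes of 0.21 (SE 0.11) and 0.13 (SE 0.07) that were not called. Lower in 6 of 6 pairs were 3 members (7.5%, background 3.16%), namely Trim2, Trim29 and Trim44. Trim2, a ligase of neurofilament turnover in neurons, was the lowest tested member by FPKM, at 0.097 on average. By counts it was not, with 239 over all libraries, against 175 for Trim45 and 86 for Trim72. Trim2 had an averaged log2 change of -1.01 (SE 0.55) that was not called, and Trim29 was at 0 in BMI1-KO MM-MΦ replicate 3.

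**Figure D5:**
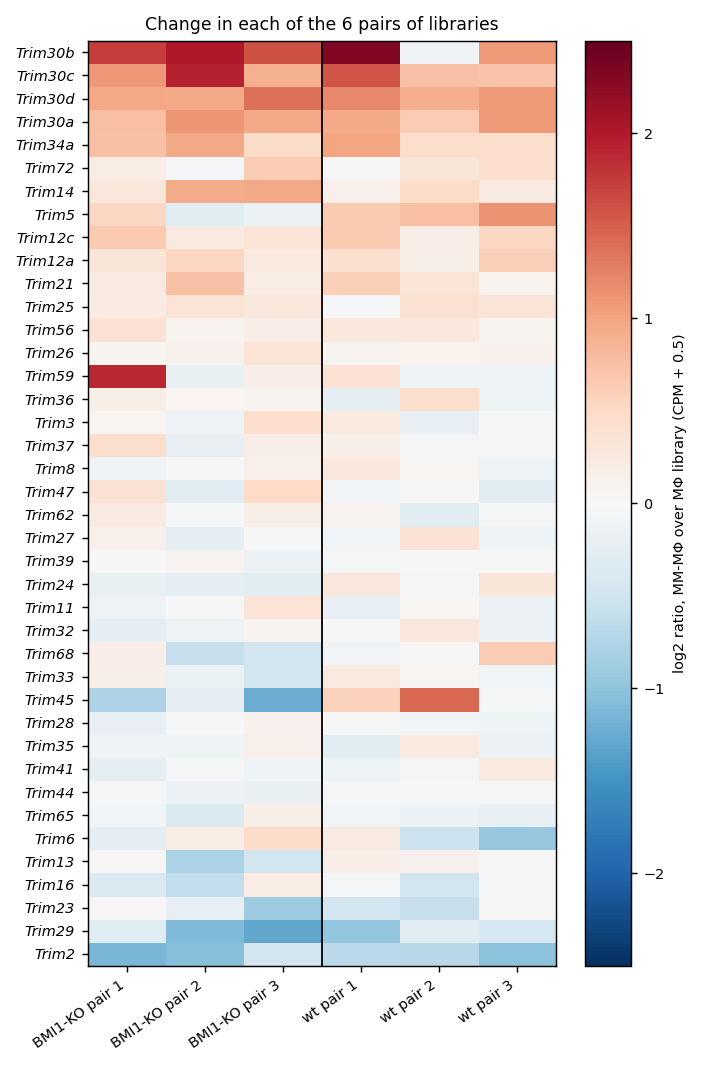
Log2 ratio of each MM-MΦ library to the MΦ library of the same number and genotype (CPM plus 0.5) for the 40 members, ordered by averaged fold change, with 3 BMI1-KO pairs on the left and 3 wt pairs on the right. Trim30c, Trim30d, Trim30a and Trim34a are red in all 6 columns, Trim30b is red in 5, and the middle rows are pale.

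Many members stayed within stated bounds, at 2-fold in a share near that of all genes tested. A member was counted as held where the 95% interval of its co-culture change lay within 2-fold in both genotypes, and 26 of 40 members (65%) met this, beside 57.8% of all genes tested. Within 1.5-fold were 17 members (42.5%, background 28.8%), namely Trim8, Trim11, Trim24, Trim25, Trim26, Trim27, Trim28, Trim32, Trim33, Trim35, Trim36, Trim39, Trim44, Trim47, Trim56, Trim62 and Trim65. Being held within a limit does not exclude a small rise: Trim25, on the list for 1.5-fold, and Trim12a and Trim12c, held within 2-fold, were among the 9 that rose with the block.

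Trim44 and Trim8 had the smallest range over the 12 libraries of the 40 tested members, at 1.26-fold between the highest and the lowest after rounding. Trim44 is a member whose N-terminal end is a ubiquitin protease-like zinc finger in place of a RING. It had 122, 119 and 117 CPM in BMI1-KO MM-MΦs and 127, 130.5 and 133 CPM in BMI1-KO MΦs. Among wt libraries, MM-MΦs had 109.6, 108 and 105 CPM, and MΦs had 112, 109 and 107 CPM. Its co-culture change was bounded between -0.31 and 0.06 on the log2 scale in BMI1-KO and between -0.21 and 0.17 in wt. It was 1 of the 3 members lower in every pair, by steps that were not called.

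Trim8, a regulator of cytokine signalling, was bounded between -0.25 and 0.28 in BMI1-KO and between -0.19 and 0.34 in wt. Trim35, first described in blood cell differentiation, was bounded between -0.29 and 0.24 in BMI1-KO and between -0.32 and 0.20 in wt. Trim65, which ubiquitinates the RNA sensor MDA5, was bounded between -0.37 and 0.20 in BMI1-KO and between -0.42 and 0.14 in wt.

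The tested PHD and bromodomain members were held within 1.5-fold, as were 28.8% of all genes. Of 4 members 3 were tested and 0 were called, where 0.549% of all genes were called higher and 0% lower. The median log2 fold change was -0.04. Trim28 had 143, 164 and 186 CPM in BMI1-KO MM-MΦs and 164, 165 and 171 CPM in BMI1-KO MΦs. The wt MM-MΦs had 154, 151 and 205 CPM, and the wt MΦs had 154, 158 and 220.3 CPM. Replicate 3 of wt stood highest with and without myeloma cells. Of 12 genes of the Trim28 gene silencing complex, Trim28 included, 11 were tested and 0 were called, against the same background of 0.549%. At that share 0 calls say little about a set of this size. The methyltransferase gene Setdb1 was at -0.01 (SE 0.08).

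Of the other domain groups, the filamin and NHL members (4 of 5 tested), the COS box members (1 of 7 tested) and the ARF, MATH or transmembrane members (4 of 4 tested) had 0 calls by edgeR with or without the block. Over all genes 0.549% were called higher without the block and 2.85% with it, so 0 calls do not set groups this small apart. The medians of the 3 groups were -0.03, 0.07 and -0.07 on the log2 scale.

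Some members varied with the replicate number in both conditions. Trim59, linked to cell division, had 5.95, 7.72 and 14.0 CPM in replicates 1, 2 and 3 of BMI1-KO MM-MΦs and 1.25, 8.86 and 12.3 CPM in BMI1-KO MΦs. In wt, MM-MΦs had 5.09, 9.31 and 34.8 CPM, and MΦs had 3.86, 10.0 and 37.7 CPM. The summed level of 10 proliferation markers was highest in the same replicate, at 1066 CPM in BMI1-KO MM-MΦs, 991 CPM in BMI1-KO MΦs, 2812 CPM in wt MM-MΦs and 2775 CPM in wt MΦs. In the other libraries it was 281 to 889 CPM. Trim37, a ligase that limits centrosome assembly, had 61.7 CPM in wt MM-MΦ replicate 3 and 61.5 CPM in wt MΦ replicate 3, against 18.1 to 34.4 CPM in the other 10 libraries. The part of proliferation in these levels was not tested.

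BMI1-KO against wt in MM-MΦs called 0 members by edgeR, DESeq2 and limma-voom, where edgeR called 0.0634% of all genes, and 3 members had an unadjusted p under 0.05 (5.02% of all genes). With the replicate number as a block 0 members were called, beside 1.27% of all genes. Trim13, a ligase of the endoplasmic reticulum membrane, had 4.68, 4.41 and 1.79 CPM in BMI1-KO MM-MΦs, against 7.69, 7.04 and 6.14 CPM in wt MM-MΦs. The log2 fold change was -0.94 (SE 0.41, edgeR adjusted p = 0.982). Of its 50-base words 14.2% also occur in Gm9359, which makes its counts uncertain. Trim30a was at 0.40 (SE 0.16, edgeR adjusted p = 0.836) and Trim35 at 0.29 (SE 0.12, adjusted p = 0.926) on the same scale.

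BMI1-KO against wt in MΦs also called 0 members by the 3 tools, where edgeR called 0.0493% of all genes, and 5 members had an unadjusted p under 0.05, all higher in BMI1-KO (5.77% of all genes in either direction). The block again called 0 members, beside 1.45% of all genes. Trim24, a nuclear receptor cofactor, had 48.3, 49.4 and 55.5 CPM in BMI1-KO MΦs, against 39.1, 38.1 and 36.6 CPM in wt MΦs. The log2 fold change was 0.43 (SE 0.13, edgeR adjusted p = 0.525). The others were Trim44 at 0.25 (SE 0.09), Trim5 at 0.76 (SE 0.26), Trim45 at 1.83 (SE 0.68) and Trim30a at 0.35 (SE 0.16), with adjusted p of 0.667 to 0.855.

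In MM-MΦs Trim24 had a difference of -0.0005 (SE 0.13) on the log2 scale between the genotypes. Its co-culture change was -0.24 in BMI1-KO and 0.19 in wt, and the test of the difference gave -0.43 (SE 0.18, edgeR adjusted p = 1).

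The members known for interferon induction or signalling were read beside other genes of that pathway, with lists that were chosen knowing earlier results of these data and are therefore no independent evidence. Of 14 such members 13 were tested, 4 rose and 0 fell (9 rose with the block), and the median log2 fold change was 0.49. Over all genes tested 0.549% were called higher without the block and 2.85% with it, and the median was -0.0037. Of 40 interferon-stimulated genes outside the family 38 were tested, 27 rose and 0 fell against the same background of 0.549%, and the median was 1.16. Ifit3, an antiviral protein gene, had the largest called rise at 3.15 (SE 0.26, edgeR adjusted p = 0.000326), and Mx1, a dynamin-like antiviral GTPase gene, rose by 2.62 (SE 0.22, adjusted p = 0.000326). Set beside this median, Trim30c (1.30) was above it, and Trim30d (1.08), Trim30a (0.92) and Trim34a (0.67) were below it. Trim30b, called with the block, was at 1.68.

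Of 19 genes of RNA and DNA sensing that TRIM proteins act on or with, 18 were tested, 4 rose and 0 fell, again beside 0.549% of all genes called higher, and the median was 0.14. Ddx58, Ifih1 and Irf7 are in both lists. Those that rose were the RNA sensor genes Ddx58 (RIG-I; 1.02, SE 0.10, edgeR adjusted p = 0.000592), Ifih1 (MDA5; 0.79, SE 0.10, adjusted p = 0.00318) and Dhx58 (1.08, SE 0.16, adjusted p = 0.01), and the transcription factor gene Irf7 (1.97, SE 0.26, adjusted p = 0.00389). Of the downstream genes, the adaptor gene Mavs was at 0.08 (SE 0.12) and the kinase gene Tbk1 at -0.01 (SE 0.10), and neither was called.

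Among 9 genes of the family that carry another name, 4 were tested and 0 were called without the block. Pml, which organizes nuclear bodies, had 68.4, 80.7 and 70.1 CPM in BMI1-KO MM-MΦs, against 53.7, 43.4 and 32.5 CPM in BMI1-KO MΦs. Among wt libraries, MM-MΦs had 79.9, 88.0 and 119 CPM, against 61.2, 55.4 and 70.9 CPM in MΦs. No library overlapped within a genotype, and the log2 fold change was 0.69 (SE 0.14), with an edgeR adjusted p of 0.0699 without the block and 1.59e-05 with it.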

How the data were processed

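RNA-seq of sorted CD11b+ F4/80+ macrophages was analysed in 12 libraries, 3 in each of 4 groups taken from the sample labels, with the Trim genes selected by symbol. The members and gene lists were chosen with earlier results of these data known. The authors deposited raw counts per gene and, per library, FPKM values with exon sizes. The submitters' processing notes name bcl2fastq 2.17.1.14, cutadapt 1.9.1, HISAT2 2.0.1, HTSeq 0.6.1, DESeq2 and the GRCm38 (mm10) build. Strand setting, annotation release and the treatment of reads that fit several genes are not stated in the sources used here. FPKM values matched the counts within 0.007 for all members and were used for levels only.

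For the tests, edgeR 4.0.16 was run in R 4.3.3 on the counts. TMM scaling and filterByExpr (minimum count 10, minimum total 15, large group size 10, minimum proportion 0.7) left 14197 genes. The quasi-likelihood test was run in 1 model with a mean per group, and the Benjamini-Hochberg adjustment covered all genes tested, with a threshold of 0.05. SEs came from the test's F statistic. Common dispersion was 0.102. Within a genotype the deviations of same-numbered libraries from their group means correlated at 0.18 to 0.73 over genes, so the numbers were taken to pair libraries, and a replicate block was run beside the main model. Between genotypes the correlations were -0.03 to 0.51, and the main model took no pairing. These ranges overlap and the labels state no pairing, so the block rests on an assumption. For the genotype comparisons a block by replicate number over all groups was also run as an alternative. It rests on a weaker assumption, as replicate 2 correlated between genotypes at only 0.03 in MM-MΦs and -0.03 in MΦs. Alternatives were DESeq2 1.42.0, limma-voom (limma 3.58.1), other scalings, filters and thresholds, and left-out libraries. The edgeR, DESeq2 and limma-voom fits were tested on simulated data. The simulation had a smaller dispersion than the libraries and a built-in effect shared by libraries of the same number and genotype. It therefore cannot test the pairing. Named members are those called by either fit, the 6 (co-culture) or 3 (genotype) with the smallest p in a comparison, the 10 highest by FPKM and those held within 1.5-fold. Genes of other lists are named if called or among the 4 smallest adjusted p. Trim23, Trim29, Trim2, Trim6, Trim3, Trim68, Trim72, Trim59, Trim37, Trim45, Trim21, Trim38, Trim55, Mavs, Tbk1 and Setdb1 were named after their values were seen. Sequences and gene models came from RefSeq (GRCm38.p6) and GENCODE M21, in which all 68 members matched by gene ID.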

Additional observations from a re-analysis of the deposited data

How the results depend on the processing

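No co-culture rise called above changed direction under the alternatives run, and the counts of calls moved. Beside 4 members called over both genotypes, library totals without scaling factors gave 2, a minimum absolute log2 fold change of 1 gave 2, and the fit without replicate 3 in all groups gave 2, while the replicate block gave 9. In BMI1-KO, beside 2, DESeq2 gave 5, library totals 1, the minimum fold change 1, only the 6 libraries compared 0, the fit without replicate 3 in all groups 0, and the replicate block 6. In wt, beside 0, DESeq2 gave 2, no filter on low counts 1 and the replicate block 3. Leaving out 1 library gave 2 to 4 members over both genotypes, 0 to 1 in BMI1-KO and 0 to 1 in wt. Leaving out 1 pair from the block, chosen after seeing the data, gave 6 to 8 over both genotypes (7 without wt pair 1 or BMI1-KO pair 2), 2 to 6 in BMI1-KO and 2 to 3 in wt. The replicate block over all groups, run for the genotype comparisons, gave 0 members in each, as without it, while the calls over all genes went to 181 in MM-MΦs, against 9 without the block, and to 206 in MΦs, against 7. The block left the interaction at 0 members and the held count at 26. The narrower limit of 1.5-fold held 17 members in place of 26, and the held count was 24 to 29 under the others. The counts of 10 and 3 members in 1 direction in 6 of 6 pairs did not move with scaling or filter, and DESeq2, limma-voom and left-out libraries give no value for them. With 3 libraries a group, members with few counts, such as Trim2, Trim29, Trim45 and Trim72, had intervals of over 2-fold and neither change nor constancy could be shown for them.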

Other observations

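Trim55, a muscle member left out of the tests for low counts, had 15 counts in BMI1-KO MM-MΦ replicate 3 and 19 in BMI1-KO MΦ replicate 3, against 0 or 1 in the other 10 libraries. Trim38 had 2, 5 and 1 counts in BMI1-KO MΦs and 0 in the other 9 libraries. Neither was tested.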
